A study of Mus musculus with 6 samples.

Results

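The Hox genes were examined in single cells of mouse lower abdominal muscle (LAM). Members were chosen by name, as every gene whose symbol is Hox followed by a cluster letter from a to d and a number, which took 31 of the 16494 genes in the count table. Hox genes encode homeodomain transcription factors that sit in 4 chromosomal clusters, in an order that matches the head-to-tail position at which each gene is active in the embryo. Genes of low paralogue number lie at the 3′ end of a cluster and act toward the head, and genes of high number lie at the 5′ end and act toward the tail, in the distal limb and in the urogenital region. Fibroblasts and vessel cells of adult tissues are known to keep position-dependent Hox patterns.

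LAM was taken from 3 WT and 3 Aromhum (Arom) male mice of 9 to 10 weeks, all on the FVB/N background. Arom mice carry the human aromatase gene, CYP19A1, with its own promoters, and the labels call their tissue scrotal hernia and that of the WT mice control. Aromatase converts androgens to estrogens, so the design asks how cells of this muscle differ between mice with and without the transgene. The paper reports more tissue estradiol in Arom males, and also less circulating androgen, fibrosis, muscle atrophy and hernia. These cannot be told apart in this design. The tissue was digested with collagenase and dispase and filtered to remove multinucleated fibers, so myonuclei are what little of the fibers remained, and libraries were made with the 10x Genomics Chromium 3′ protocol, which counts 1 unique molecular identifier (UMI) for each captured 3′ end.

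The 6 libraries held 64958237 to 111826460 UMIs each, and 59227 of 63647 barcodes passed minimums of 200 genes and 1000 UMIs. Hox genes took 105409 of the 514700710 kept UMIs, or 169.5 to 245.6 of every 1000000 in a library. CYP19A1 had 0 UMIs in each WT library and 7.03, 7.12 and 8.50 UMIs of every 1000000 in Arom 1 to 3, which matched the labels. Cells were clustered without any Hox or Hox-cluster transcript and named from marker genes, so that Hox levels played no part in the names. Of the markers, 14 of 15 for endothelial cells, 11 of 13 for fibroblasts and all of those for the other 8 types were highest in the type named after them. There were 402 barcode sequences that occurred in more than 1 library. The doublet caller marked 0% of the cells of WT 3 and 1.28 to 2.92% of the cells of the other mice.

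The 31 members comprised 11 HoxA genes, 8 HoxB genes, 7 HoxC genes and 5 HoxD genes. In GRCm38 the clusters lie on chromosome 6 (HoxA, minus strand) and at chr11:96194316-96368256 (HoxB, plus strand), chr15:102921103-103036852 (HoxC, plus strand) and chr2:74668310-74765142 (HoxD, plus strand). The annotation holds 39 protein-coding Hox genes. Of these, Hoxb1, Hoxb13, Hoxc12, Hoxc13, Hoxd1, Hoxd4, Hoxd12 and Hoxd13 were not analysed here. Hoxc5 shares an exon on the same strand with Hoxc10, and Hoxd3 shares one with Hoxd4, so reads there cannot be assigned to 1 gene and the counts of Hoxc5, Hoxc10 and Hoxd3 are uncertain. Hoxd3 had 21 UMIs in all cells. Levels are given as UMIs of a gene per 1000000 UMIs of the cell type in a mouse (CPM). Since each molecule is counted at its 3′ end, CPM needs no correction for transcript length, but how well the 3′ end of each gene was captured was not tested.

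Promoter windows of 300 bases, 250 before and 50 after the annotated start, were found in the RefSeq table (GRCm38.p6) for 17 of the 31 genes. The windows of 3 genes are shown because they belong to genes on which the results below turn: an anterior HoxA gene that differed with genotype in endothelial-like cells, the HoxA gene most abundant there, and a posterior HoxD gene found in few fibroblast groups. They are written 5′ to 3′ on the strand of the gene, with every CCAAT or its complement ATTGG and every PBX-HOX motif in capitals.
Hoxa2, chr6:52164782-52165081, minus strand: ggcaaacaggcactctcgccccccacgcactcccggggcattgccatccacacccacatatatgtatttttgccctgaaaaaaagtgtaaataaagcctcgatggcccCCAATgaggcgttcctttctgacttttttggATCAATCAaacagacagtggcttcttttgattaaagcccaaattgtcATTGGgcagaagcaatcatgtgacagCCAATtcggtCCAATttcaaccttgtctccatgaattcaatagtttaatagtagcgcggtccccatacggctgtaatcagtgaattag
Hoxa5, chr6:52204538-52204837, minus strand: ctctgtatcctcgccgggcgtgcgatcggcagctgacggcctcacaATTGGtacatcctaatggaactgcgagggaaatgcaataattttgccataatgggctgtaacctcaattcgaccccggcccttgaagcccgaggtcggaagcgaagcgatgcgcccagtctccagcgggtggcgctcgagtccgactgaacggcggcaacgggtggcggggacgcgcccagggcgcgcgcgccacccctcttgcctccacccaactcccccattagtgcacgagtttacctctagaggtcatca
Hoxd10, chr2:74691641-74691940, plus strand: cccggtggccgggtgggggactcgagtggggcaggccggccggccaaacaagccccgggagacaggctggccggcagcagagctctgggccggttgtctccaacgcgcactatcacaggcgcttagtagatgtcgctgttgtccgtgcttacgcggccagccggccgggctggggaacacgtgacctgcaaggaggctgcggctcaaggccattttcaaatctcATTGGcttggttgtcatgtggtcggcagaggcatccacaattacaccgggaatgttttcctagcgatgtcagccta

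The PBX-HOX motif, searched as TGATNNAT on both strands, is the joint site of a Hox protein and its TALE cofactor PBX. It stood in 2 of the 17 Hox windows (11.8%), those of Hoxa2 and Hoxb8, against 8.85% of the 32851 windows of all genes. CCAAT stood on either strand in 9 of the 17 (52.9%) against 37.4% of all windows, and TATAAA in 1 of 17 (5.88%) against 13.6%. The full palindromic estrogen response element, searched on both strands, stood in 0 of 17 windows and in 0.07% of all. The median GC content of the Hox windows was 55.7% against 52.7%, and the median number of CpG dinucleotides was 14 against 7. These are matches of letters in a window and say nothing about binding.

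The summed Hox levels of fibroblast-like and endothelial-like cells of LAM overlapped in range over the mice, but came from different Hox clusters. In the 6 mice the summed Hox level had a lowest, median and highest value of 170, 199 and 248 CPM in fibroblast-like cells, and of 219, 239 and 270 CPM in endothelial-like cells. Within each mouse the endothelial-like level was the higher, which was not tested. The 7 HoxC genes made up 49.6 to 56.8% of the fibroblast-like Hox UMIs, and 0.477 to 1.3% of the endothelial-like ones. The mean paralogue number weighted by UMIs was 7.92 to 8.55 in fibroblast-like cells and 5.61 to 6.04 in endothelial-like cells, so the 2 ranges did not overlap. Mesothelial-like cells had the highest summed level (240, 398 and 473 CPM), mural-like cells had 174, 248 and 317 CPM, lymphatic-like cells 200, 248 and 286 CPM, and myonuclei-like cells 168, 205 and 234 CPM. Glia-like cells (119, 135 and 137 CPM) and muscle stem cell-like cells (67.3, 88.7 and 121 CPM) had less. Macrophage-like cells (33.8, 36.2 and 46.8 CPM) and T cell-like cells (14.3, 26.6 and 72.9 CPM) were lowest.

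**Figure D1:**
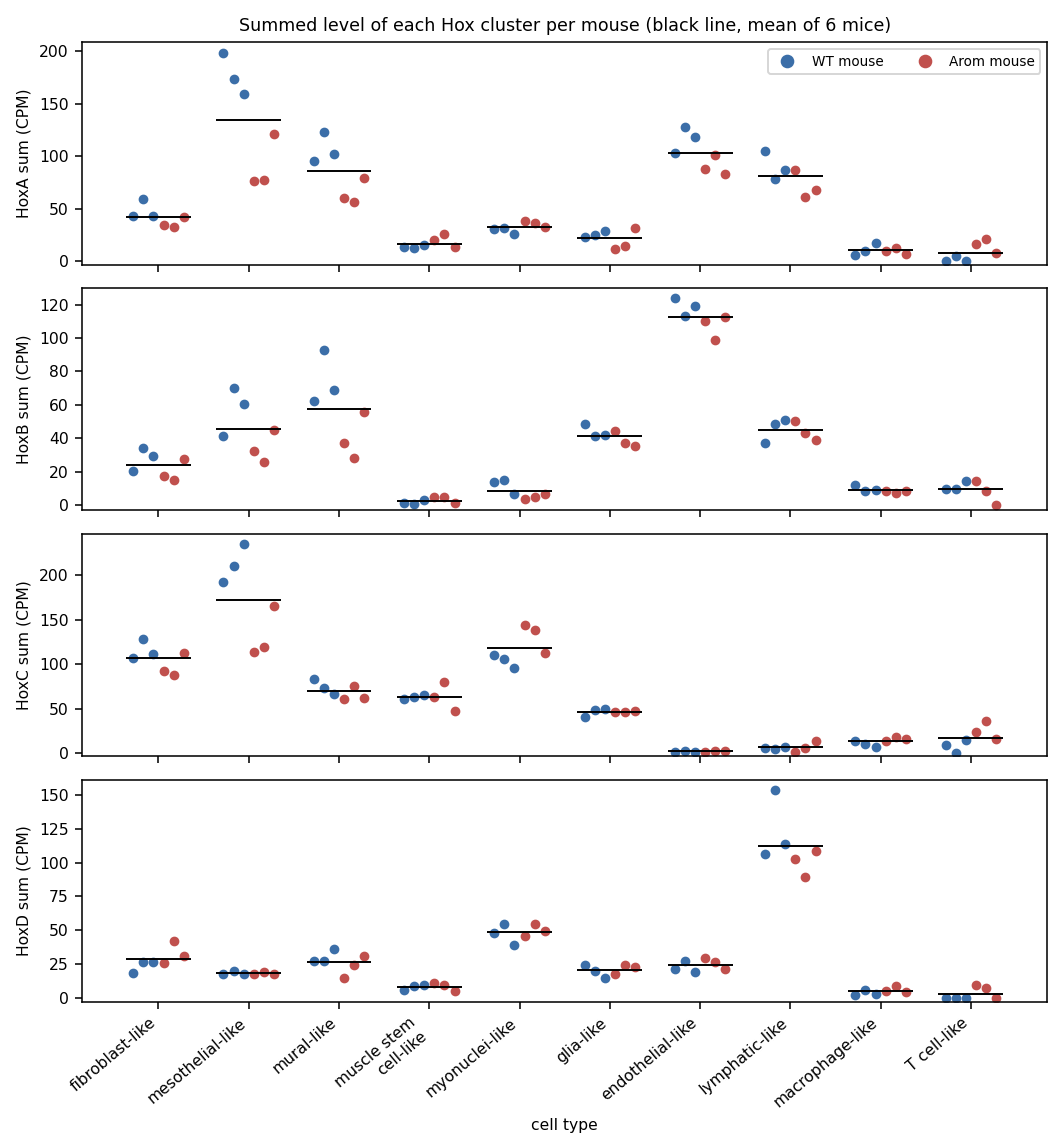
Summed CPM of the HoxA, HoxB, HoxC and HoxD genes in each cell type. Points are the 6 mice and the black line is their mean. HoxC is 88.5 to 128 CPM in fibroblast-like cells and 1.19 to 2.85 CPM in endothelial-like cells.

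The share of cells with any Hox UMI depended on depth. It was 69.5% in fibroblast-like cells (median 9951 UMIs) and 57.9% in endothelial-like cells (median 3995 UMIs), but 17.2% and 21.1% after each cell was thinned to 1000 UMIs. The order of the thinned shares is that of the summed CPM. A HoxC UMI was found in 0.97% of endothelial-like cells, below the 4.53% of macrophage-like cells (median 5625 UMIs), so HoxC UMIs in endothelial-like cells could not be told apart from background, for which macrophage-like cells were the only mark used. At a finer clustering (Leiden resolution 1.2) the mean HoxC level of endothelial-like cells was 7.45 CPM, still far under the 106 CPM of fibroblast-like cells.

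**Figure D2:**
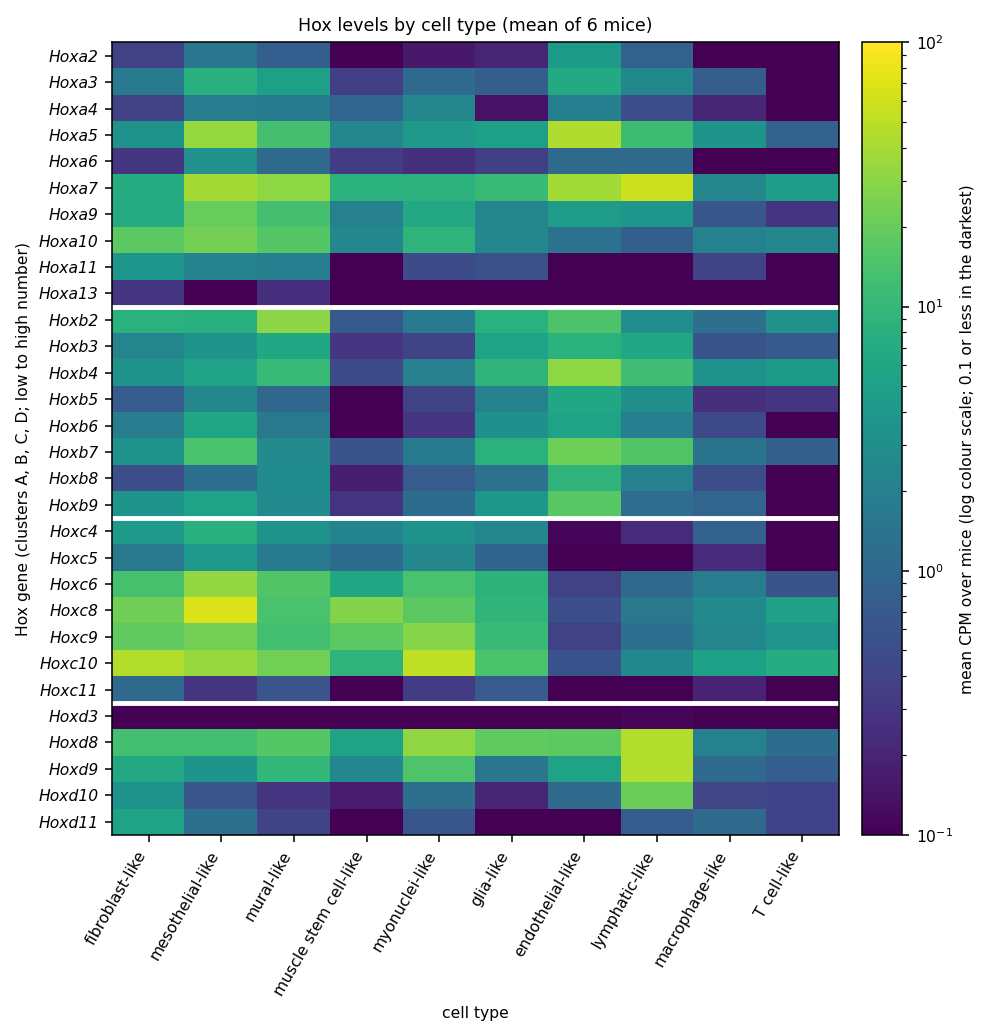
Mean CPM over the 6 mice of 30 of the 31 Hox genes in each cell type, on a log colour scale. HoxC genes are filled in fibroblast-like, mural-like, mesothelial-like, glia-like, muscle stem cell-like and myonuclei-like cells and are near 0 in endothelial-like and lymphatic-like cells.

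HoxC genes led the Hox genes of fibroblast-like, mesothelial-like, myonuclei-like and muscle stem cell-like cells. Hoxc10 (chr15:102966796-102971893), a gene of the lumbar and hindlimb level, had the highest level of the members in fibroblast-like cells, with 41.3, 44.0 and 52.7 CPM as the lowest, median and highest mouse, within the limit that its count is uncertain at the shared exon. It reached 36.5, 50.0 and 65.3 CPM in myonuclei-like cells, 27.8, 34.0 and 42.8 CPM in mesothelial-like cells, 19.9, 22.4 and 26.5 CPM in mural-like cells, 12.6, 13.7 and 17.3 CPM in glia-like cells and 6.44, 9.13 and 10.3 CPM in muscle stem cell-like cells. The ranges of fibroblast-like, myonuclei-like and mesothelial-like cells overlap one another. In endothelial-like cells Hoxc10 was at 0.238, 0.502 and 1.05 CPM, below every mouse of the macrophage-like cells (1.81, 5.63 and 7.39 CPM). The lowest mouse of the muscle stem cell-like cells lies within that macrophage-like range, while every mouse of the fibroblast-like, myonuclei-like, mesothelial-like and mural-like cells lies above it. The glia-like level was carried by 1 cluster, since the one led by Grp and Tenm2 was at 24.6 to 54.3 CPM of Hoxc10 and the one led by Col20a1 and Bche at 0 to 11.4 CPM, which overlaps the macrophage-like range. Hoxc8, a gene of the thoracic level, had its highest level in mesothelial-like cells (40.3, 70.5 and 97.6 CPM), and was at 21.7, 27.7 and 33.0 CPM in muscle stem cell-like cells and at 14.9, 23.1 and 33.8 CPM in fibroblast-like cells. It was the leading member of the muscle stem cell-like cells, where HoxC genes held 63.9 to 74.6% of the Hox UMIs and no HoxB gene reached 1 CPM in every mouse. Hoxc9 was at 13.7, 17.9 and 24.4 CPM in fibroblast-like cells, 12.8, 15.6 and 29.2 CPM in muscle stem cell-like cells and 24.0, 28.6 and 33.1 CPM in myonuclei-like cells. Hoxc6 was at 9.8, 13.1 and 18.3 CPM in fibroblast-like and 22.1, 33.7 and 45.0 CPM in mesothelial-like cells.

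HoxA and HoxB genes made up nearly all of the endothelial-like pattern, with a median share of 42.7% and 47.2%. Hoxa5, a gene of the neck and upper trunk level that also acts in the lung, was its highest member at 35.0, 43.1 and 54.2 CPM, against 2.64, 3.7 and 3.96 CPM in fibroblast-like cells. Hoxa7 followed with 31.1, 35.8 and 51.2 CPM against 4.91, 7.28 and 11.0 CPM, and Hoxb4 with 26.4, 31.4 and 35.9 CPM against 2.16, 3.18 and 5.37 CPM. Hoxb7 was at 18.1, 22.2 and 24.3 CPM, and Hoxb9 at 10.6, 17.4 and 18.9 CPM in endothelial-like cells. In none of these genes did an endothelial-like mouse overlap a fibroblast-like one. Hoxa10, a posterior HoxA gene, ran the other way, with 13.2, 17.2 and 24.5 CPM in fibroblast-like and 0.976, 1.11 and 1.98 CPM in endothelial-like cells.

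Lymphatic-like cells kept Hoxa7 (44.7, 57.6 and 79.1 CPM), its highest level in any type, but differed from the blood endothelial-like cells in the HoxD cluster. Hoxd9 was at 32.8, 45.9 and 58.1 CPM against 3.98, 5.05 and 7.17 CPM, Hoxd8 at 31.3, 44.4 and 67.7 CPM and Hoxd10 at 15.0, 20.0 and 28.1 CPM against 0.445, 0.652 and 2.14 CPM. HoxD genes held 41.7 to 53.8% of their Hox UMIs, and HoxC genes 0.719 to 6.23%. The 2 endothelial classes were not tested against each other. Mural-like cells, taken as pericytes and smooth muscle, had HoxC genes (23.3 to 41.0% of their Hox UMIs). Whether all of their clusters, among them one led by H2-M9 and Actg2, belong to vessels was not tested. Hoxb2 was at 12.9, 28.2 and 54.0 CPM in these cells and was with Hoxa7 their highest member. Hoxd8 was the leading member of glia-like cells at 14.0, 18.7 and 22.4 CPM.

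Of the 31 members, 9 had their highest mean in mesothelial-like cells, 8 in endothelial-like, 5 in lymphatic-like, 4 in fibroblast-like, 3 in myonuclei-like and 2 in mural-like cells. Hoxd3 and Hoxa13 stayed under 1 CPM. The place of Hoxd3 in lymphatic-like cells rests on 1 UMI, and that of Hoxa13 in fibroblast-like cells on 109 UMIs, all from Arom mice. At least 1 CPM in every mouse was reached by 20 members in mesothelial-like, 19 in fibroblast-like, 16 in endothelial-like, 15 in mural-like, 14 in glia-like, 11 in myonuclei-like, 9 in lymphatic-like, 8 in muscle stem cell-like, 4 in macrophage-like and 0 in T cell-like cells.

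Fibroblast-like cells were compared with 5 other types on UMI sums per mouse and type, in edgeR with the mouse as a block, p adjusted over all genes tested. Against endothelial-like cells, 30 members were tested and all were called, 14 higher and 16 lower in fibroblast-like cells, where 75.8% of all genes tested were called (39.9% higher and 35.9% lower). Of the 30, 11 passed the filter on low counts through the fibroblast-like cells alone and 1 through the endothelial-like cells alone, so that their calls followed from the filter and support nothing. The 11 were the 7 HoxC genes, Hoxa11, Hoxa13, Hoxd10 and Hoxd11, which had 0 (Hoxc5) to 69 (Hoxd10) UMIs in all endothelial-like cells. The other 18 passed in both types and all were called, 3 higher (Hoxa9, Hoxa10 and Hoxd9) and 15 lower, where 74.3% of the genes that passed in both types were called, 35.5% higher and 38.8% lower. Hoxa10 was 3.91 higher on the log2 scale (SE 0.17, edgeR adjusted p = 1.1e-07). Hoxa5 was lower by 3.53 (log2 difference −3.53, SE 0.14, adjusted p = 6e-08), and the log2 difference was −3.37 for Hoxa2, −3.19 for Hoxb4, −2.59 for Hoxb7, −2.36 for Hoxa7 and −2.23 for Hoxb9. Each of the 8 HoxB genes was lower in fibroblast-like cells. Within HoxA the sign changed along the cluster, from lower for Hoxa2 to Hoxa7 to higher for Hoxa9 and Hoxa10. Hoxd8 (−0.37, SE 0.13, adjusted p = 0.025) and Hoxd9 (0.40, SE 0.14, adjusted p = 0.024) differed least, and Hoxd9 turned to −0.79 (SE 0.23, adjusted p = 0.0103) among cells within the study's own limits of 2500 genes and 5% mitochondrial UMIs.

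Against mural-like cells, 28 members were tested and 17 called, 6 higher and 11 lower in fibroblast-like cells, where 58.2% of all genes tested were called (31.7% higher and 26.4% lower). Of the 13 that passed the filter in both types, 3 were higher (Hoxc8, Hoxc9 and Hoxc10) and 6 lower, where 61.7% of such genes were called (31.7% higher and 30.0% lower). Hoxc10 was higher by 1.19 (SE 0.10, edgeR adjusted p = 2e-06). Hoxa7 (log2 difference −1.89), Hoxa5 (−1.69) and Hoxb2 (−1.62) were lower, and Hoxc6 (0.01, SE 0.11) was not called. The mural-like sums also held 3414 to 9277 CPM of the 13 fibroblast markers, and their part in the HoxC levels of these cells was not tested. Against muscle stem cell-like cells, 24 members were tested and 18 called, all higher in fibroblast-like cells, where 67.9% of all genes tested were called and 38.5% were higher. Within the study's own limits on cells 4 were called in place of 18. All but 6 of the 24 passed the filter through the fibroblast-like cells alone, and of these 6, 3 were called, Hoxc10 (2.30, SE 0.13), Hoxd8 (1.22) and Hoxc6 (1.09), where 73.1% of the genes that passed in both types were called and 32.7% were higher. The log2 difference was 0.05 for Hoxc9 and −0.37 for Hoxc8 (SE 0.17, adjusted p = 0.074), which did not pass.

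Against mesothelial-like cells, 29 members were tested and 24 called, 8 higher and 16 lower in fibroblast-like cells, where 65.2% of all genes tested were called (33.1% higher and 32.1% lower). Of the 23 that passed the filter in both types, 4 were higher and 15 lower, where 65.9% of such genes were called (32.7% higher and 33.3% lower). Hoxa5 (−2.79, SE 0.25), Hoxa7 (−2.22, SE 0.08), Hoxc8 (−1.37, SE 0.09) and Hoxc6 (−1.02) were lower, while Hoxc10 (0.68, SE 0.09) and Hoxd9 (1.28) were higher. Hoxc9 did not pass, with a log2 difference of 0.00. Mesothelial-like cells thus carried the same HoxC genes at another balance, with Hoxc8 above Hoxc10 in all 6 mice, and with the anterior HoxA genes of the endothelial-like pattern beside them. The mesothelial-like sums also held 25377 to 32735 CPM of the 13 fibroblast markers, whose part was not tested. Against glia-like cells, 25 members were tested and 16 called, 12 higher and 4 lower, where 58.7% of all genes tested were called (30.9% higher and 27.8% lower). Of the 9 that passed the filter in both types, 4 were higher and 2 lower, where 63.4% of such genes were called (33.4% higher and 30.0% lower). Hoxc10 (2.08, SE 0.10) and Hoxc8 (1.70) were among the higher, Hoxb4 (−1.03) and Hoxb7 (−0.90) lower, and Hoxd8 (−0.13) did not pass.

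The clusters within a cell type differed as well, which was described and not tested. Of the endothelial-like clusters, the one led by Cldn5 and Sox17, genes of arterial endothelium, had the most Hoxa5 (66.8, 78.8 and 87.2 CPM) and HoxA genes took 57.8 to 64.6% of its Hox UMIs. The cluster led by Ackr1 and Selp, genes of venules, had 6.48, 12.8 and 16.7 CPM of Hoxa5, and HoxB genes took 54.4 to 71.8%, with Hoxb7 at 26.3, 34.7 and 43.4 CPM and Hoxb9 at 21.4, 24.2 and 32.5 CPM. The cluster led by Timp4 and Gpihbp1, genes of capillaries, was highest in Hoxa7 (61.5, 70.8 and 87.4 CPM), and that led by Cytl1 and Gkn3 in Hoxb4 (43.4, 57.7 and 75.5 CPM). No mouse of the Cldn5 Sox17 cluster overlapped one of the Ackr1 Selp cluster in Hoxa5, Hoxb7 or Hoxb9. Among mural-like cells, Hoxb2 was at 15.2, 42.7 and 82.8 CPM in the cluster led by the pericyte genes Kcnj8 and Abcc9, at 21.0, 33.0 and 54.8 CPM in the one led by Myh11 and Acta2, and at 7.84, 13.1 and 18.9 CPM in the one led by H2-M9 and Actg2.

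The fibroblast-like cells were clustered a second time, again without Hox genes, into 20 clusters. Of these 2 were mixed and left out, and the others made 13 groups, 5 named from marker lists (such as Esr1-high and tenocyte-like) and 8 by the genes that led them. Levels are given for mice with at least 10 cells in a group, and differences between groups were not tested. Hoxc10 was the top member in most groups but ranged widely. It was at 69.0, 72.2 and 85.9 CPM in the Lars2 G0s2 group, 57.9 to 89.6 CPM in 4 mice of the Esr1-high group, 47.6, 61.3 and 68.5 CPM in the Mup5 Moxd1 group, 33.5, 37.5 and 51.5 CPM in the tenocyte-like group, 28.6, 31.7 and 41.7 CPM in the Inmt Ifi207 group and 19.4, 26.2 and 29.0 CPM in the Dmkn group. The Lars2 G0s2 group had the largest sum of all Hox genes (367, 421 and 507 CPM), with means of 57.1 CPM of Hoxc9, 55.6 CPM of Hoxc8, 41.7 CPM of Hoxa10 and 30.6 CPM of Hoxb2. The Inmt Ifi207 group had 110, 115 and 128 CPM in all, and the Mmp3-high group 69.9, 73.8 and 77.8 CPM in the 3 mice with enough cells. Hoxa10 was at 23.2, 30.7 and 47.3 CPM in the Mup5 Moxd1 group and at 2.3, 5.5 and 6.01 CPM in the Inmt Ifi207 group, which did not overlap.

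**Figure D3:**
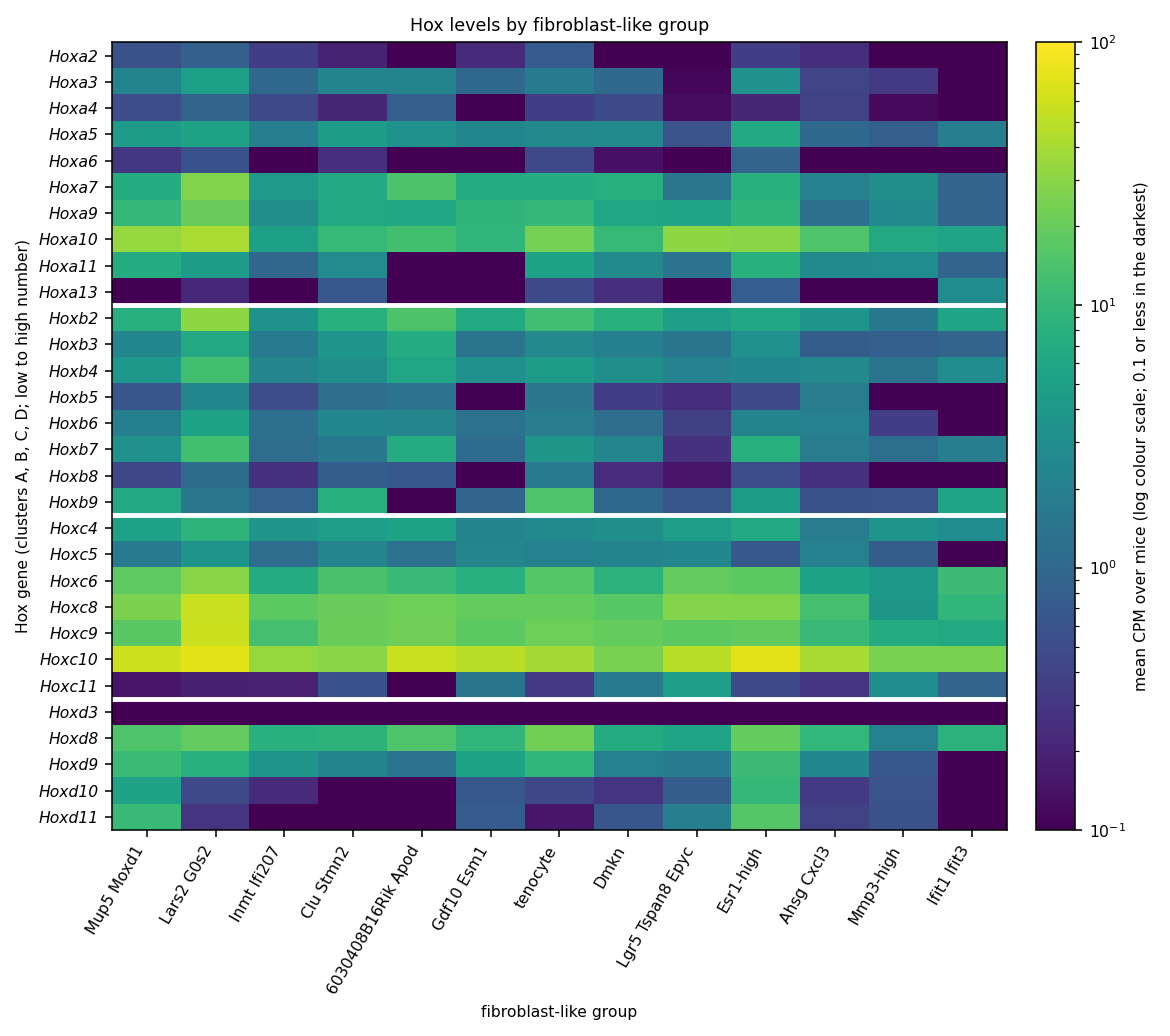
Mean CPM of 30 of the 31 Hox genes in each of the 13 fibroblast groups, on a log colour scale from 0.1 to 100 CPM. Hoxc10 is present in every group, and Hoxd10 and Hoxd11 stand out in the Esr1-high and Mup5 Moxd1 groups.

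Among the fibroblast groups, Hoxd10 and Hoxd11, neighbouring genes toward the posterior end of the HoxD cluster, were found mainly in 2. Hoxd11 here, and Hoxc11 and Hoxb6 below, were chosen after their values were seen. Hoxd10 was at 5.05 CPM in WT 1 and at 9.02, 16.3 and 9.23 CPM in Arom 1 to 3 in the Esr1-high group. Hoxd11 was at 7.58 CPM and at 10.7, 33.2 and 13.4 CPM in the same mice. WT 1 had 42 cells in this group, so its 2 values rest on very few UMIs, and genotypes were not compared there. In the Mup5 Moxd1 group Hoxd10 was at 4.02, 5.21 and 10.9 CPM in the WT mice and 0.73, 5.22 and 6.30 CPM in the Arom mice. Hoxd11 was at 8.85, 15.3 and 10.4 CPM in the WT mice and 0.73, 19.2 and 10.6 CPM in the Arom mice of that group. The means of all other groups were at most 0.76 CPM of Hoxd10 and 1.89 CPM of Hoxd11. Hoxb9 had its highest mean in the tenocyte-like group (9.17, 14.5 and 20.4 CPM), as had Hoxd8 (17.9, 22.6 and 27.3 CPM). For Hoxd8 that range overlapped the 12.6 to 25.2 CPM of the Esr1-high group. Hoxc11 had its highest mean, 4.78 CPM, in the Lgr5 Tspan8 Epyc group, ahead of 2.88 CPM in the Mmp3-high and 1.77 CPM in the Dmkn group.

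In fibroblast-like cells Hoxa9 and Hoxc9 were lower in Arom than in WT mice. Of 29 members tested, 3 were called, Hoxa13 being the other one, where 13.0% of all genes tested were called, 5.77% lower and 7.18% higher. The share called among the members is thus near that of all genes, and the count is no result about Hox genes as a group. Hoxa9, a posterior HoxA gene that also acts in blood stem cells, was at 7.10, 11.3 and 8.55 CPM in WT 1 to 3 and at 5.01, 4.64 and 5.72 CPM in Arom 1 to 3. The groups did not overlap, and the log2 fold change was −0.83 (SE 0.17, edgeR adjusted p = 0.0292). Hoxc9 was at 18.6, 24.4 and 21.2 CPM in WT and 13.7, 15.4 and 17.2 CPM in Arom, again without overlap, with a log2 fold change of −0.49 (SE 0.11, adjusted p = 0.0346). Hoxa13, the most posterior HoxA gene, which acts in the distal limb and the urogenital tract, had 0 of 69735297 UMIs in the WT mice and 109 of 182201727 in the Arom mice, or 0.623, 0.644 and 0.499 CPM. It passed the filter on low counts only through the Arom mice, so its call is given as a description and supports nothing here. Set against the limit of 3 counts over the WT group, its level pooled over all fibroblast-like cells was at least 13.9-fold higher in Arom, which did not hold within groups. The Esr1-high group held 74 of the 109 UMIs, the Dmkn group 13 and the tenocyte-like group 6. In the Esr1-high group the same limit was 5.62 CPM in WT, above the Arom level of 1.11 CPM, so no fold can be given there. The least fold was 1.53 in the Dmkn group and 1.62 in the tenocyte-like group.

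These 3 calls depended on single mice. All 3 were lost when any mouse but Arom 3 was left out, and without Arom 3 there were 15 calls, 3 higher and 12 lower, where 29.9% of all genes tested were called and 14.3% were lower. The Esr1-high group had 42, 4 and 3 cells in WT 1 to 3 and 1382, 1787 and 529 in Arom 1 to 3, and the Mmp3-high group 56, 2 and 4 against 704, 1249 and 6. Without these groups Hoxa9 was lower by the same amount (−0.84, adjusted p = 0.0417), Hoxc9 was at −0.41 (adjusted p = 0.0759), and Hoxc6 (−0.80, adjusted p = 0.0298) and Hoxb6 (−1.45, adjusted p = 0.0429) were called, while Hoxa13 was not. Other uneven groups stayed in that fit, and their part was not tested. The Ahsg Cxcl3 group had 12, 8 and 5 cells in WT 1 to 3 and 547, 544 and 272 in Arom 1 to 3. The Mup5 Moxd1 group had 833, 469 and 336 against 132, 212 and 390. A limma fit took mean log2 CPM, with 1 CPM added, over the 7 fibroblast groups with at least 20 cells in every mouse. Each had equal weight, without the Esr1-high and Mmp3-high groups. None was called, with Hoxa9 at −0.38 (limma adjusted p = 0.451) and Hoxc9 at −0.25 (adjusted p = 0.433). The added 1 CPM shrinks log2 differences of low genes. In edgeR fits of single groups Hoxa9 was at −0.56 (Dmkn), −0.61 (Inmt Ifi207), −0.63 (Mup5 Moxd1), −0.58 (Lars2 G0s2), −0.82 (tenocyte-like) and −0.70 (Clu Stmn2), called in none. Hoxc9 ran there from −0.50 (tenocyte-like) to 0.34 (Clu Stmn2), also uncalled.

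Over all 29 members, 20 of the log2 fold changes were negative, with a median of −0.48 against 0.008 over all genes, and 13 had an unadjusted p under 0.05, as had 33.4% of all genes tested. Hoxc10, the highest member, did not follow, with 44.7, 43.1 and 43.2 CPM in WT and 46.4, 41.3 and 52.7 CPM in Arom (log2 fold change 0.07, SE 0.10, adjusted p = 0.645). Hoxc8 was at 22.2, 33.8 and 24.9 CPM in WT and at 14.9, 15.2 and 23.9 CPM in Arom, where Arom 3 overlapped the WT mice, with −0.61 (adjusted p = 0.0815). Hoxd10 was at 1.25, 1.41 and 3.02 CPM in WT and 4.05, 7.21 and 3.22 CPM in Arom (1.39, SE 0.44, adjusted p = 0.0751), and Hoxd11 at 3.05, 3.61 and 2.64 CPM in WT and 4.90, 14.5 and 4.72 CPM in Arom (1.36, adjusted p = 0.0968). Neither passed, and both had the opposite sign without the Esr1-high and Mmp3-high groups, at −0.99 (adjusted p = 0.179) and −0.91 (adjusted p = 0.151). The Mup5 Moxd1 group, where both were also found, had 833, 469 and 336 cells in WT and 132, 212 and 390 in Arom. Its part in that change of sign was not tested.

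**Figure D4:**
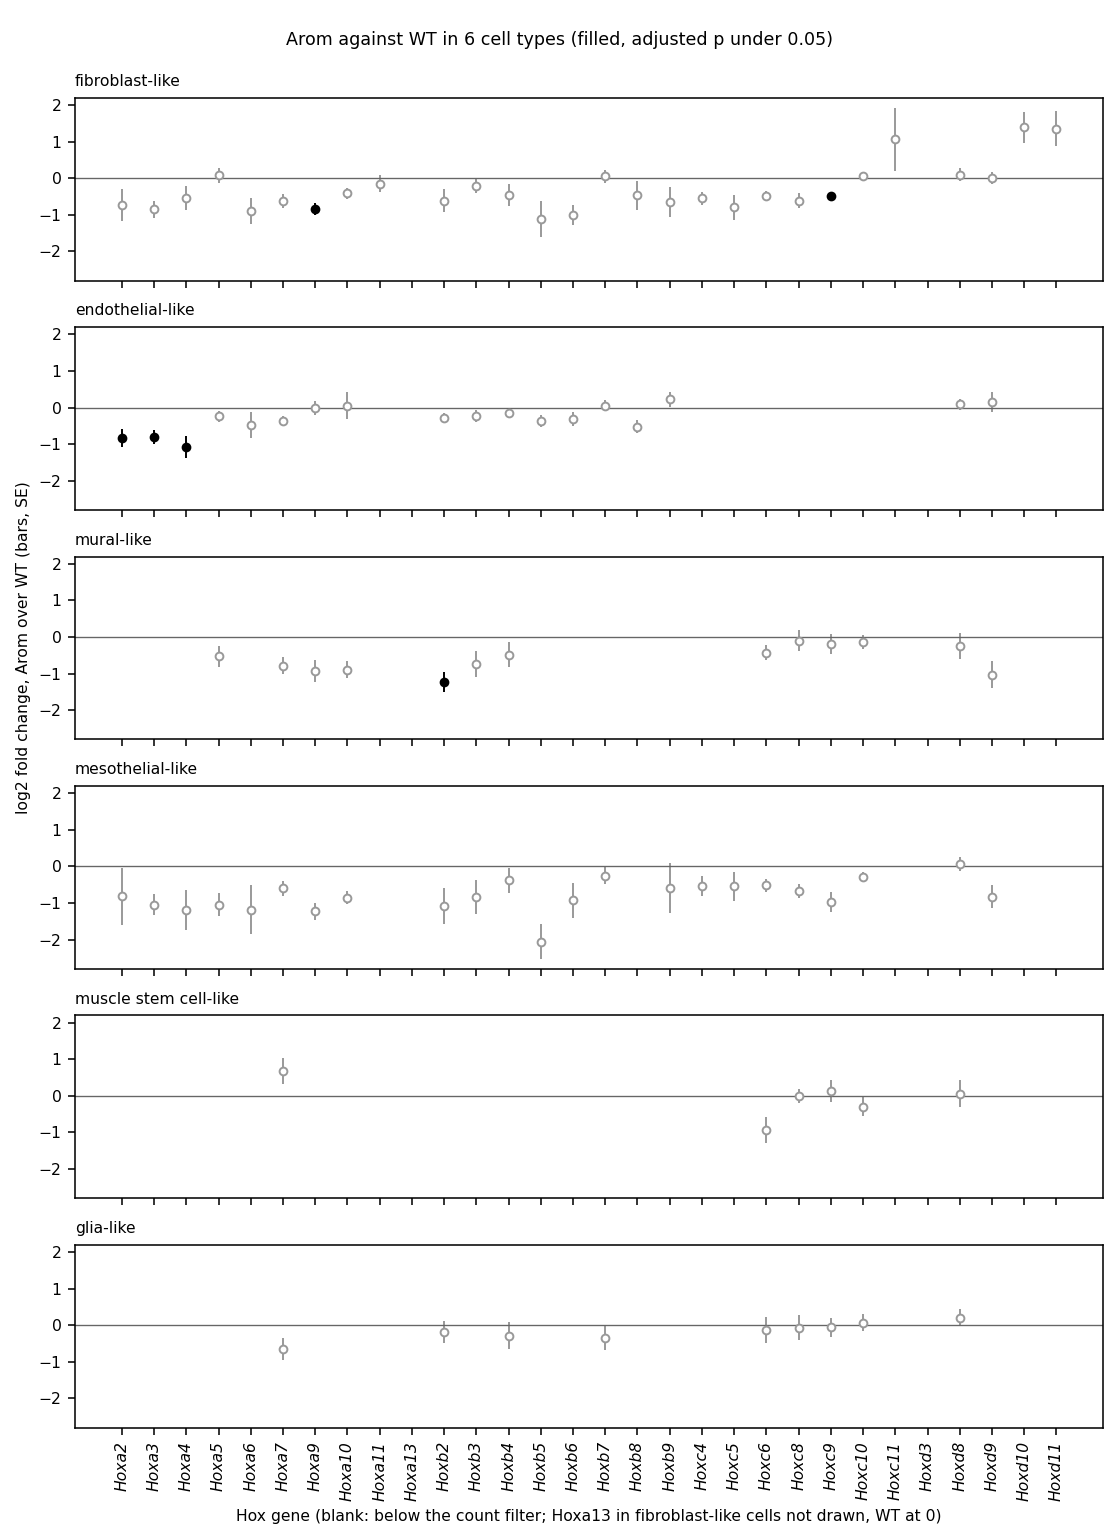
Log2 fold change of Hox genes in Arom over WT in 6 cell types, with bars of 1 SE. Filled points have an edgeR adjusted p under 0.05 over all genes tested, and Hoxa13 of the fibroblast-like cells is not drawn because it had no UMI in WT. In mesothelial-like cells 22 of 23 points lie under 0 and none is filled.

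In endothelial-like cells Hoxa2, Hoxa3 and Hoxa4 were lower in Arom. They were 3 of 19 members tested, where 15.0% of all genes tested were called and 6.43% were lower. The share called is again near that of all genes, and anterior members were not tested against the others. Hoxa2, which acts in the hindbrain and the branchial arches, was at 4.04, 5.59 and 6.77 CPM in WT and 3.05, 3.51 and 2.78 CPM in Arom (log2 fold change −0.83, SE 0.24, edgeR adjusted p = 0.0425). Hoxa3, which acts in the pharyngeal arches, was at 7.92, 9.26 and 8.95 CPM in WT and 3.87, 6.56 and 4.73 CPM in Arom (−0.80, SE 0.20, adjusted p = 0.0255). Hoxa4 was at 2.46, 3.13 and 2.62 CPM in WT and 1.22, 0.763 and 1.65 CPM in Arom (−1.08, SE 0.30, adjusted p = 0.0421). In each of these neighbouring genes the groups did not overlap. The abundant Hoxa5 was at 39.4, 48.3 and 54.2 CPM in WT and 38.6, 46.7 and 35.0 CPM in Arom and was not called (−0.24, adjusted p = 0.284). The median log2 fold change of the 19 members was −0.28, against −0.007 over all genes. When single mice were left out, Hoxa2 was called only without WT 1 (adjusted p = 0.0235), Hoxa3 only without WT 1 (0.037) or Arom 2 (0.0328), and Hoxa4 only without Arom 3 (0.0282). DESeq2 called 1 member in these cells, and 0 were called within the study's limits on cells. The endothelial-like clusters differed in their HoxA genes. Their shares of the class are not given by genotype, and the part of this makeup in the differences was not tested. The 13 fibroblast markers, none at 0 in every mouse, summed to 316 to 470 CPM in the endothelial-like sums of the WT mice and to 528 to 762 CPM in those of the Arom mice, and their part in these differences was not tested.

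**Figure D5:**
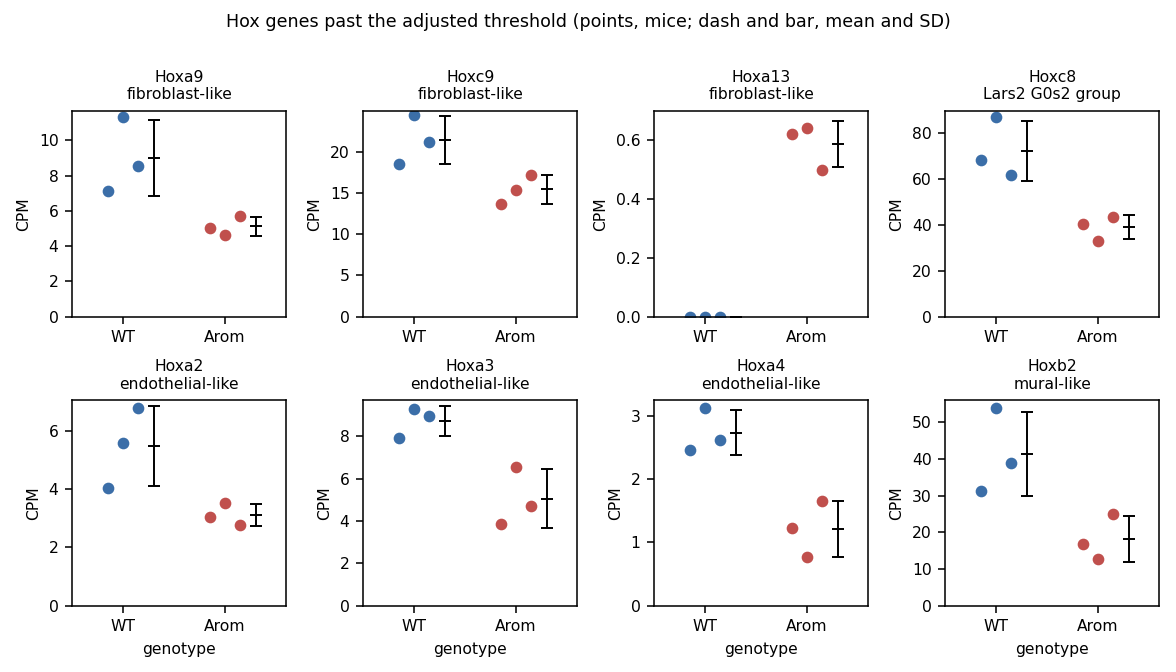
CPM in each mouse of the Hox genes called between genotypes. Points are mice, and the dash and bar are the mean and SD of 3 mice. The WT and Arom points do not overlap in the genes shown.

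In mural-like cells Hoxb2, the highest HoxB gene there, was at 31.3, 54.0 and 39.0 CPM in WT and at 16.9, 12.9 and 25.1 CPM in Arom. It was the only one of 13 members tested that was called (log2 fold change −1.22, SE 0.28, edgeR adjusted p = 0.0444), where 2.97% of all genes tested were called and 0.806% were lower. The call was lost without the marked doublets (adjusted p = 0.0538) and when any mouse but Arom 3 was left out, and without Arom 3 the adjusted p was 0.00538. The mural-like class differed in makeup between the genotypes. The cluster led by H2-M9 and Actg2, where Hoxb2 was lowest, held 22.8 to 31.7% of the mural-like UMIs in WT and 33.9 to 60.9% in Arom, and that led by Kcnj8 and Abcc9 16.6 to 29.7% and 7.71 to 15.0%. Within the Kcnj8 Abcc9 cluster Hoxb2 was at 46.9, 82.8 and 32.4 CPM in WT and 54.7, 15.2 and 38.4 CPM in Arom, which overlapped. That cluster had 76, 77 and 123 cells in Arom 1 to 3 and 100 Hoxb2 UMIs in all 6 mice. Its Arom values therefore rest on few UMIs. Within the Myh11 Acta2 cluster it was at 38.3, 54.8 and 48.8 CPM in WT and 24.9, 21.0 and 27.7 CPM in Arom, without overlap. Hoxb2 is not given by genotype for the H2-M9 Actg2 cluster, and the part of this makeup in the Hoxb2 call was not tested. All 13 log2 fold changes were negative, with a median of −0.53 against −0.008 over all genes. The fibroblast markers summed to 3414 to 5199.8 CPM in the WT and to 6399 to 9277 CPM in the Arom mural-like sums, and their part was not tested.

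In mesothelial-like cells every Arom mouse had less Hox in sum (240 to 348 CPM) than any WT mouse (448 to 473 CPM), but edgeR called 0 of 23 members, where 0.284% of all genes tested were called. Of the 23, 22 had a negative log2 fold change (median −0.82 against −0.002 over all genes), and 10 had an unadjusted p under 0.05 (20.6% of all genes tested had). DESeq2 called 2, Hoxa9 and Hoxa10. The share of all genes that DESeq2 called is not given, so this count cannot be judged by the edgeR share. Hoxa9 was at 27.4, 32.9 and 25.2 CPM in WT and 10.8, 9.14 and 15.6 CPM in Arom (−1.22, SE 0.23, adjusted p = 0.0597). Hoxc8 was at 74.7, 88.5 and 97.6 CPM in WT and 40.3, 48.5 and 66.3 CPM in Arom (−0.67, adjusted p = 0.12). Hoxa5 was at 54.8, 37.8 and 45.0 CPM in WT and 13.7, 17.3 and 31.9 CPM in Arom (−1.05, adjusted p = 0.119). All 3 were without overlap. Without Arom 3, 9 of 19 members tested were called, all lower, where 13.4% of all genes tested were called and 5.68% were lower. The WT mice gave 144, 163 and 66 mesothelial-like cells and the Arom mice 626, 975 and 658, and markers of macrophages summed to 53.4 to 248 CPM in WT and 145 to 851 CPM in Arom, whose part was not tested.

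No member was called in muscle stem cell-like cells (6 tested, 2.49% of all genes called) or glia-like cells (9 tested, 0.632% called) by edgeR. In each of the 2 types 1 member had an unadjusted p under 0.05, and DESeq2 called 0. Of all genes tested, 21.5% in muscle stem cell-like and 10.5% in glia-like cells had such a p. Of the fibroblast groups, 7 had at least 20 cells in every mouse and were fitted on their own. Hoxc8 was called in the Lars2 G0s2 group, the only call among its 13 members tested, where 1.67% of all genes tested were called and 0.652% were lower. It was at 68.1, 86.9 and 61.5 CPM in WT and at 40.6, 33.2 and 43.6 CPM in Arom, without overlap (log2 fold change −0.88, SE 0.17, edgeR adjusted p = 0.0146), and was lost without WT 2, Arom 1 or Arom 2. In the other 6 groups edgeR and DESeq2 called 0 members. The Dmkn group had 18 members tested, 3 of them with an unadjusted p under 0.05, and 0.000% of all genes called. The Mup5 Moxd1 group had 21 tested, 4 under 0.05 and 1.17% of all genes called, and the Inmt Ifi207 group 14 tested, 1 under 0.05 and 0.203% called. The tenocyte-like group had 12 tested, 1 under 0.05 and 0.979% called, the Clu Stmn2 group 8 tested, 0 under 0.05 and 0.247% called, and the Gdf10 Esm1 group 1 tested, 0 under 0.05 and 0.000% called. For these groups the share of all genes with an unadjusted p under 0.05 is not given, so the counts under 0.05 cannot be judged by the shares called.

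Whether a genotype difference itself differed between fibroblast-like cells and another type was tested as an interaction. Hoxa9 was the only one of 30 members called against endothelial-like cells (log2 difference of the fold changes −0.82, SE 0.18, edgeR adjusted p = 0.0257), where 10.9% of all genes tested were called and 6.77% were lower. In endothelial-like cells Hoxa9 was at 3.72, 5.11 and 4.45 CPM in WT and 4.07, 4.58 and 4.50 CPM in Arom, and the groups overlapped. When a mouse was left out the Hoxa9 interaction passed only without Arom 3 (adjusted p = 0.0399 in edgeR), and reached 0.101 without WT 2. Against the other types edgeR called 0 members. There were 28 tested against mural-like cells (6 with an unadjusted p under 0.05, and 4.20% of all genes called) and 24 against muscle stem cell-like cells (3 under 0.05 and 1.15% called). There were 29 tested against mesothelial-like cells (2 under 0.05 and 1.55% called) and 25 against glia-like cells (0 under 0.05 and 2.19% called). DESeq2 called Hoxa5 against mesothelial-like cells and 0 members against the other 3 types. The share of all genes with an unadjusted p under 0.05, and the share called by DESeq2, are not given for the interactions. The counts of members under 0.05 can therefore not be set against the shares called.

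Genes that work with the Hox factors were taken from 4 lists. TALE homeodomain proteins of the PBX, MEIS and PKNOX families bind DNA together with Hox proteins, and the list of them also holds Pbxip1, a protein that binds PBX and has no homeodomain. In fibroblast-like cells, where 13.0% of all genes tested were called, 7.18% higher and 5.77% lower, 2 of the 10 genes of this list were higher in Arom. They were Pknox2 (log2 fold change 1.19, SE 0.21, edgeR adjusted p = 0.024) and Pbxip1 (0.58), and the median was −0.16. Polycomb and trithorax proteins hold Hox genes silent or active through chromatin marks. Of 18 tested, 4 were lower in Arom fibroblast-like cells, among them Ezh2 (−1.05), the methyltransferase of Polycomb complex PRC2, its partner Eed (−0.40) and the PRC1 member Cbx7 (−1.39), with a median of −0.25. Of 38 other positional transcription factors tested, 3 were higher (Barx2 3.46, Alx4 1.18 and Pitx1 0.45, a hindlimb factor) and 4 lower (Foxd1 −1.65, Tbx2 −1.26, Msx1 −0.71 and Nr2f2 −0.41), with a median of 0.27. Of 4 noncoding transcripts of the Hox clusters edgeR and DESeq2 called 0 and 0 had an unadjusted p under 0.05, with a median of −0.29. The median over all genes was 0.008. Like the Hox calls, these rested on single mice. Without WT 1 there were 2 Polycomb and trithorax calls and 1 positional factor, without WT 2, WT 3, Arom 1 or Arom 2 there was 0 in either list, and without Arom 3 there were 9 and 15. Both calls of the TALE list were lost without any mouse but Arom 3.

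In endothelial-like cells all 5 noncoding transcripts tested were lower in Arom, with a median of −0.99 against −0.007 over all genes, where 15.0% of all genes tested were called and 6.43% were lower. All 5 were called without WT 1, 4 without Arom 3, 2 without WT 3 and 1 without WT 2, Arom 1 or Arom 2, and DESeq2 called 4. The shares of all genes called in these other fits are not given, and the part of the class's makeup by cluster was not tested. They were Hotairm1 (−0.91) and Hoxaas3 (−0.99) of the HoxA cluster, Halr1 (−1.06) beside it, Hoxb3os (−1.15) and Hoxd3os1 (−0.80). Of the other lists, 2 of 18 Polycomb and trithorax genes were lower, among them Ezh1 (−0.55), and of 13 positional factors 1 was higher (Nr2f2 0.94, a factor of venous identity) and 2 lower (Lhx2 −1.60 and Msx1 −0.76). The 2 Polycomb and trithorax calls were 0 without Arom 1 and 3 without WT 3, and the 3 positional calls were 2 without any 1 mouse. In mural-like cells Tbx2 (−0.98) was the only list gene called by edgeR, where 2.97% of all genes tested were called, and it was lost without any mouse but Arom 3. Of the mural-like genes tested, 7 of 13 positional factors, 4 of 16 Polycomb and trithorax genes, 3 of 3 noncoding transcripts and 1 of 8 genes of the TALE list had an unadjusted p under 0.05, as had 21.5% of all genes tested. In mesothelial-like cells edgeR called 0 genes of the 4 lists, and DESeq2 called 3 genes of the TALE list and 1 positional factor. The share of all genes that DESeq2 called is not given there. There 4 of the TALE list, 4 Polycomb and trithorax, 3 positional and 1 noncoding had an unadjusted p under 0.05, as had 20.6% of all genes tested.

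Between fibroblast-like and endothelial-like cells the lists were counted over the genes that passed the filter on low counts in both types, of which 74.3% were called, 35.5% higher and 38.8% lower in fibroblast-like cells, with a median log2 difference of −0.04. All 4 noncoding Hox-cluster transcripts were lower (median −1.98), as were the 3 counted in the same way against mural-like cells, where 30.0% of such genes were lower. Of 6 genes of the TALE list 3 were higher and 2 lower (median 0.82), and of 13 other positional transcription factors 7 were higher and 5 lower (median 1.22). Of 18 Polycomb and trithorax genes 2 were higher and 10 lower (median −0.41).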

How the data were processed

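LAM of 3 WT and 3 Arom mice was profiled with 10x Genomics Chromium 3′ libraries, 1 per mouse. The authors deposited 1 table of raw UMI counts, which are whole numbers with no normalization. Per the submitters' processing notes it was made with Cell Ranger 3.0.2 on mm10, and the study's methods add the human CYP19A1 gene. The study ran 1 WT and 1 Arom littermate on each of 3 dates, but which replicate numbers share a date is not given in the sources used here, and whether the numbers pair the mice was only checked. The table's columns fall in 30 blocks without labels, which were not used. Promoter sequences came from the RefSeq table of GRCm38.p6 and gene positions from the GRCm38 annotation.

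Barcodes with fewer than 200 genes or 1000 UMIs were left out (4420 of 63647). With 37 Hox and Hox-cluster transcripts left out, cells were clustered in scanpy 1.11.5 (2000 variable genes, 30 principal components, 20 neighbors, Leiden resolution 0.8) and the 32 clusters were named from marker lists, which left 7 mixed or unnamed. Doublets were marked with Scrublet and kept. UMI counts were summed per mouse and cell type, with the mouse as the replicate. They were tested with edgeR 4.0.16 (quasi-likelihood test, TMM, filterByExpr, at least 20 cells in every mouse), and p was adjusted by the Benjamini-Hochberg method over all genes tested with a threshold of 0.05. Comparisons between cell types and interactions had the mouse as a block. CPM in the text is UMIs per 1000000 UMIs of the summed library, without TMM scaling, and log2 fold changes are those of the fits. The fits were tested on simulated data.

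Genes given by mouse were the 10 highest members in fibroblast-like cells, every member called in a genotype fit, the 3 highest in each other type, and members that reached 10 CPM with their highest level outside fibroblast-like cells. Members, lists and markers were chosen with earlier results of these data known. Alternatives were DESeq2 1.42.0, RLE size factors, no filter on low counts, the study's limits on cells, no doublets, other Leiden resolutions, other weights of the fibroblast groups (limma 3.58.1), a replicate block and each mouse left out. With 3 mice a group, p-values measure the spread between these mice. Results of some genes are not reported here.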

Additional observations from a re-analysis of the deposited data

Results flagged for a closer look

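The genotype difference of Hoxa9 itself differed between fibroblast-like and endothelial-like cells in a test of the interaction. In fibroblast-like cells Hoxa9 was at 7.10, 11.3 and 8.55 CPM in WT 1 to 3 and at 5.01, 4.64 and 5.72 CPM in Arom 1 to 3, so every Arom mouse was below every WT mouse. In endothelial-like cells it was at 3.72, 5.11 and 4.45 CPM in WT and 4.07, 4.58 and 4.50 CPM in Arom. The log2 fold change of fibroblast-like cells minus that of endothelial-like cells was −0.82 (SE 0.18, edgeR adjusted p = 0.0257 over all genes). Over the alternatives the value ran from −1.26 to −0.75. The adjusted p of Hoxa9 was 0.0243 with RLE size factors, 0.0284 with no filter, 0.0433 in DESeq2, 0.0258 without doublets and 0.141 within the study's limits on cells, and it ran from 0.0399 (without Arom 3) to 0.101 (without WT 2) when a mouse was left out.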

How the results depend on the processing

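Most calls between cell types were kept under other processing, and genotype calls changed with it and with single mice. Calls between cell types were followed for the 19 members given by mouse, wherever the member was still tested. Of these, 388 were kept and 18 lost over the fits that left out a mouse. Over the other alternatives 342 were kept, 15 lost and 1 reversed, that of Hoxd9 against endothelial-like cells (−0.79 within the study's limits). Leaving out a mouse gave 28 to 29 calls against endothelial-like, 16 to 18 against mural-like, 17 to 19 against muscle stem cell-like, 21 to 24 against mesothelial-like and 14 to 17 against glia-like cells. All these counts, kept calls among them, include members that passed the filter on low counts through 1 cell type alone. For such members being called or kept followed from the filter and supports nothing. Within the study's limits 4 members were called against muscle stem cell-like cells, in place of 18. The type with the highest level was the same for 29 of 29 members at Leiden resolutions 0.4 and 1.2 and without doublets, and for 23 within the limits. HoxC in endothelial-like cells was 1.97 CPM at the lower resolution and 7.45 CPM at the higher one.

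Genotype calls in fibroblast-like cells, 3 in the reported fit, were 8 in DESeq2, 0 within the limits, 1 with the replicate block, 0 in limma with equal weight of 7 fibroblast groups, which changed the tool and the groups together, and 0 to 15 without a mouse, the 15 without Arom 3. In endothelial-like cells (3 reported) they were 1 in DESeq2, 0 within the limits, 6 with the replicate block and 0 to 2 without a mouse. In mural-like cells (1 reported) they were 3 with no filter, 0 without doublets and 0 to 4 without a mouse. In mesothelial-like cells (0 reported) they were 1 with no filter, 2 in DESeq2, 3 with the replicate block and 0 to 9 without a mouse. In muscle stem cell-like and glia-like cells they were 0 to 0 without a mouse. In the fibroblast groups (1 reported) they were 2 with no filter, 0 within the limits and 0 to 2 without a mouse. Interaction calls (1 reported) were 2 in DESeq2, 0 within the limits, where 2 of 5 fits could be run, and 0 to 5 without a mouse. The share of all genes called is not set beside each of these counts. They show only how the calls changed and are no result about Hox genes as a group. Of all genes in fibroblast-like cells, 1796 were called, 2 to 124 without any mouse but Arom 3 and 4166 without Arom 3, 1 within the limits, 2831 in DESeq2, 1178 with the block, 653 without the Esr1-high and Mmp3-high groups and 65 with equal weight of the 7 groups. The cause of these changes was not tested. The deviations of same-numbered mice had correlations of 0.21, −0.13 and 0.17, so not every pair deviated together and the numbers were not taken as pairs. Hox genes under about 1 CPM rest on few UMIs, and with 3 mice a group small differences cannot be seen.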

Other observations

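A cluster that no marker list named, led by Lypd2 and Sfrp5, had a Hox pattern made up mostly of HoxC genes. Its lowest, median and highest summed level was 225, 280 and 358 CPM, with 50.8, 61.1 and 65.0% from HoxC genes. HoxC genes also led in fibroblast-like, mesothelial-like, myonuclei-like and muscle stem cell-like cells, so this does not name the cluster. Hoxc10 was at 56.9 ± 23 CPM there (SD, n = 6) and Hoxc8 at a mean of 40.7 CPM. A cluster of dividing cells led by Ube2c and Birc5 had 200, 225 and 284 CPM of Hox genes in sum.

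Of the glia-like clusters, the one led by Grp and Tenm2 had means of 34.0 CPM of Hoxc10 and 20.1 CPM of Hoxc8. The one led by Col20a1 and Bche had 23.1 CPM of Hoxd8, 13.7 CPM of Hoxb7 and 7.28 CPM of Hoxc10. These differences were not tested.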
